A study of Mus musculus with 14 samples.

Results

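The effect of 2 viruses given alone and together was read from the 8 libraries of batch 1, out of 14 libraries in the whole series. These 8 form a balanced design of 4 groups with 2 libraries each, and all libraries that the labels place in batch 1 were taken. The mice were wild-type ICR, an outbred stock. MEF2A libraries came from hearts of mice given AAV9:cTnT-hMEF2A, which carries human MEF2A. YAP5SA libraries came from mice given AAV9:cTnT-YAP5SA, which carries a YAP whose LATS phosphorylation sites are replaced by alanine, so that the kinase can no longer hold it in the cytoplasm. Mice with both viruses received 1E11 genome copies of each, the dose that the other mice received of 1, so the total virus was also higher in that group. Controls received no virus, so no group shows what a virus without either factor does. Injection was intraperitoneal at postnatal day 7, and hearts were collected 5 days later, at day 12. The cTnT promoter is that of Tnnt2 and restricts the delivered genes to cardiomyocytes. RNA was taken from nuclei enriched with PCM1, a centrosomal protein that surrounds cardiomyocyte nuclei, and polyA libraries without strand information were sequenced. The labels do not say that the libraries of a group came from separate animals, so p-values measure the spread between libraries, which may be technical.

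YAP is the effector of the Hippo pathway. The kinases MST and LATS phosphorylate it, and when they are inactive YAP enters the nucleus, binds TEAD factors and switches on genes of growth and division. In the heart YAP is known for driving proliferation of cardiomyocytes before and shortly after birth. MEF2 factors bind an AT-rich site in muscle genes, recruit activators or class II histone deacetylases, and are known for turning on contractile and metabolic genes of cardiac and skeletal muscle. The design asks whether MEF2A acts the same with and without the added YAP5SA. The measure is the interaction, the log2 change of both viruses against YAP5SA minus the log2 change of MEF2A against Control. An interaction of 0 means that both-virus libraries sit at the sum of the single effects. A positive value puts them above it and a negative value below it.

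Library totals lay between 16171068 and 19430731 counts, but the Controls differed from the rest in what was counted. Mitochondrially encoded (mt-) genes held 60.7% and 67.5% of the counts in Controls 1 and 2. Their share was 14.8% and 16.3% with MEF2A, 3.80% and 6.77% with YAP5SA, and 6.10% and 5.35% with both viruses. Controls 1 and 2 therefore had 6347527 and 5554085 counts outside mt- genes, against 13574060 to 18246217 in the other 6, and 15274 and 15125 genes with a count against 19453 to 22217. The 3 Controls of batch 2 had mt- shares of 5.54% to 13.9%. Xist and Y-linked transcripts marked the Control and YAP5SA libraries as male and the MEF2A and both-virus libraries as female. Sex and MEF2A virus thus cannot be told apart in MEF2A against Control or in both viruses against YAP5SA, while a sex effect of equal size in both cancels in the interaction. Cardiomyocyte markers were high in all 8, with all 8 of 8 markers tested and a mean log2 CPM of the list between 10.7 and 11.9.

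In the interaction, 1 of 16262 genes passed edgeR's quasi-likelihood test (0.00615% of genes, called at a two-sided p under 0.05 after Benjamini-Hochberg adjustment). At an adjusted p under 0.1 there were 60 genes (0.369%), 44 above and 16 below the sum. At an unadjusted p under 0.05 there were 2046 genes (12.6%), of which 951 lay above and 1095 below. The median interaction over all genes was -0.04, with its 5th and 95th percentiles at -4.34 and 2.12. In counts simulated from these libraries with 15639 genes, the test recovered 4.41% of interactions of log2 size 1, 48.5% of size 2 and 89.4% of size 3. Of 98 genes called there, 4 were false. The simulation gave the groups a common mean apart from the added effects, used the trended dispersion and set no library apart. It thus does not give the recovery with Controls as unlike the rest as these, but size 1 was rarely recovered even so. Removing mt- genes from the counts and library totals left 1 gene called, with its interaction at 4.13 ± 0.40 (SE) and its adjusted p at 0.0411.

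The gene called was Hbb-bs (chr7:103826534-103828096, GRCm38), which codes for an adult beta-globin of red blood cells. Its level was 232 and 174 CPM in Controls, 27.9 and 22.9 with MEF2A, 30.9 and 27.0 with YAP5SA, and 80.3 and 46.9 with both viruses, where CPM is the count scaled to the TMM-adjusted library total. The Controls were the highest, the both-virus libraries came second, and the single-virus libraries overlapped at the bottom. The log2 interaction was 4.14 ± 0.40 (SE, n = 2 per group, edgeR quasi-likelihood adjusted p = 0.0391). In the other haemoglobin genes of the erythroid list the Controls also had the highest mean and both viruses the next. Hba-a1, an alpha-globin, was at 186 and 140 CPM in Controls, 39.3 and 27.0 with MEF2A, 34.6 and 19.5 with YAP5SA and 54.2 and 27.4 with both viruses. Both Controls of Hba-a1 lay above the other 6, which overlapped. Hbb-bt was at 14.9 and 9.81 CPM in Controls, 1.66 and 1.67 with MEF2A, 2.04 and 1.59 with YAP5SA and 6.47 and 2.67 with both. The median interaction of the erythroid list was 3.07. Summed over the 5 erythroid markers that were tested of 7 listed, the level was 324 to 443 CPM in Controls, 52.7 to 70.6 with MEF2A, 49.0 to 69.7 with YAP5SA and 78.8 to 142 with both viruses. Hbb-bs is part of that sum and of the list's median. Both Controls lay above the other 6 libraries in 3 of the 5 markers (11.1% of all genes). The mean log2 CPM of the list was 4.77 in Control 1 but 2.26 in Control 2, against 2.66 in both-virus library 1. Of the defining markers, Hba-a2 had 0 counts in every library. In bulk samples fewer cells of a type and less RNA per cell cannot be told apart, and the part of blood RNA in this result was not tested. Fitted on all 14 libraries, the Hbb-bs interaction was 2.33 and was not called. It also lost its call without Control 2, MEF2A 1, MEF2A 2 or both-virus library 1, at values from 3.70 to 4.33.

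The next 7 genes above the sum had an adjusted p of 0.0754 and so did not pass. Sparc, a matricellular protein (chr11:55394500-55423183), was at 382 and 414 CPM in Controls, 92.8 and 80.6 with MEF2A, 265 and 190 with YAP5SA and 262 and 231 with both viruses. Here MEF2A stood lowest, Controls highest, and both-virus libraries fell inside the range of the YAP5SA libraries (interaction 2.32 ± 0.29). Heatr5b (chr17:78752898-78835364) was at 122 and 104 CPM in Controls, 25.6 and 27.0 with MEF2A, 29.9 and 28.6 with YAP5SA and 33.6 and 32.8 with both. All 3 virus groups lay near one another and well below the Controls, so the positive interaction of 2.29 ± 0.26 comes with a Control level that none of them reached. Cenpb, a centromere protein, had the same form, at 40.9 and 52.5 CPM in Controls and 5.19 to 8.98 in the other 6 (3.31 ± 0.42). Tpt1 (2.41 ± 0.33), the actin-binding Tmsb4x (2.46 ± 0.35), Serpini1 (5.49 ± 0.79) and the selenoprotein gene Selenot (2.94 ± 0.43) made up the rest. In each of these 8 genes both Controls lay above the other 6 libraries.

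The 8 genes of smallest p below the sum had adjusted p-values from 0.0754 to 0.0923, and 7 of them had the opposite form. Fpgs, which adds glutamates to folates, was at 37.7 and 33.9 CPM in Controls, 96.7 and 88.5 with MEF2A, 74.4 and 73.5 with YAP5SA and 62.5 and 63.7 with both viruses. The Controls were lowest and the virus groups stood apart in the order given (-1.60 ± 0.25). Ubp1, a grainyhead-related factor, was at 117 and 102 CPM in Controls, 252 and 274 with MEF2A, 360 and 317 with YAP5SA and 293 and 281 with both (-1.50 ± 0.24). Nrbp2 (-1.78 ± 0.28), Dkc1, the pseudouridine synthase of telomerase (-1.99 ± 0.33), Slc25a53 (-3.68 ± 0.61) and the formin Fhod1 (-1.52 ± 0.26) were likewise lowest in Controls. Unkl had 0 counts in both Controls and 4.24 to 11.1 CPM in the other 6, so no fold is given. Reads of Fpgs, Ubp1, Nrbp2, Dkc1, Slc25a53, Fhod1 and Unkl cannot be told apart from those of overlapping genes on the other strand.

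Grhl1 was the exception among the 8, and the both-virus libraries set it apart. This grainyhead-family transcription factor (chr12:24572283-24617391) is best known from epithelia. Its level was 22.0 and 24.3 CPM in Controls, 30.3 and 34.6 with MEF2A, 34.1 and 29.7 with YAP5SA and 10.2 and 11.4 with both viruses. Both-virus libraries were lower than all others, while the single-virus groups overlapped above the Controls. The interaction was -2.05 ± 0.32 (edgeR adjusted p = 0.0774). Against MEF2A alone both viruses fell by 1.58 on the log2 scale (edgeR adjusted p = 0.0142), and against YAP5SA alone the difference was -1.56 ± 0.23 and did not pass (edgeR adjusted p = 0.133). In batch 2, with CPM scaled over all 14 libraries, Controls were at 22.4, 50 and 16.7, MEF2A at 15.5 and 14.8 and YAP5SA at 22.4. With Control resting on batch 2 in place of Controls 1 and 2, the interaction was -0.82 ± 0.47.

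**Figure D1:**
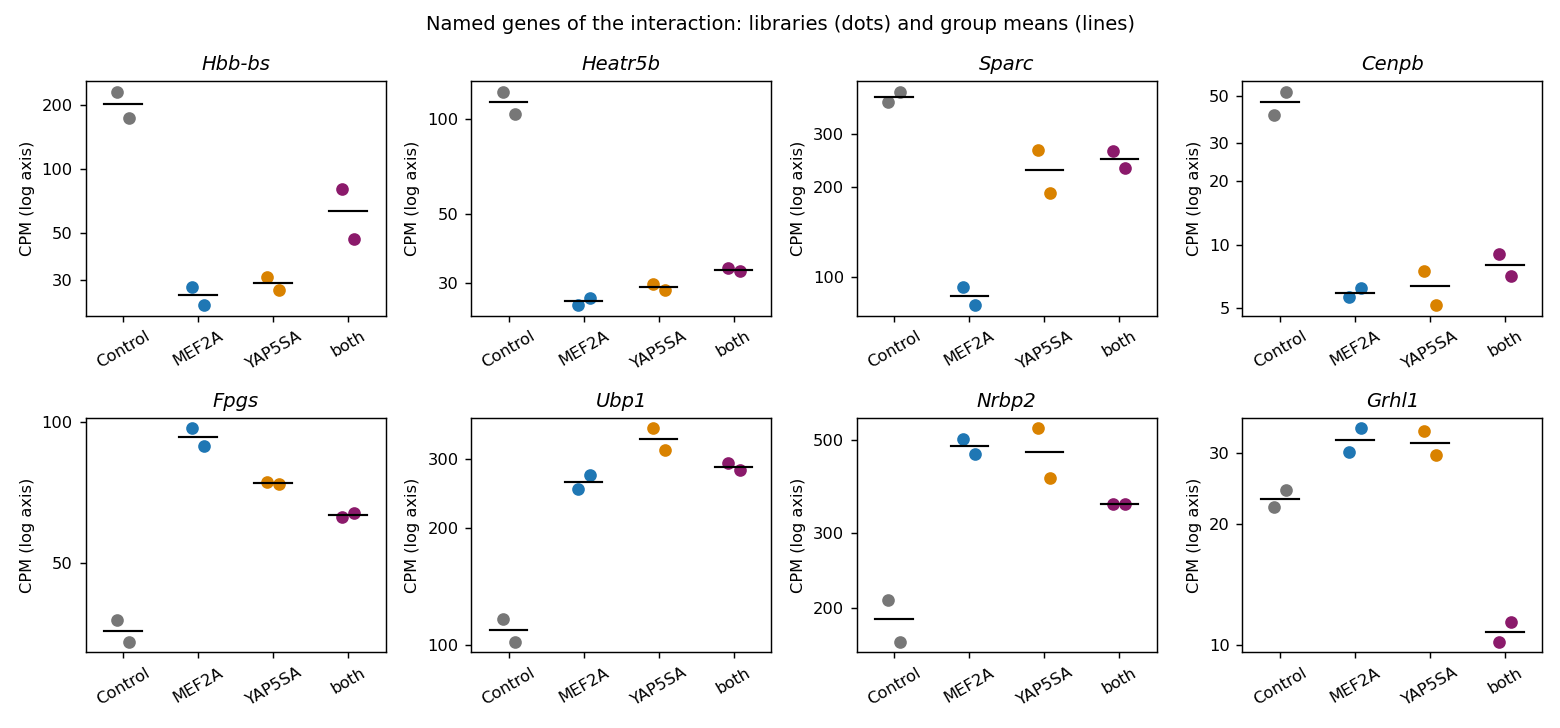
Level of 8 genes in each of the 8 batch 1 libraries, as CPM on a log axis, with 1 point per library in the groups Control, MEF2A, YAP5SA and both viruses. Hbb-bs, Heatr5b, Sparc and Cenpb lie above the sum of the single effects with Controls highest, Fpgs, Ubp1 and Nrbp2 lie below it with Controls lowest, and Grhl1 is lowest in the both-virus libraries, at 10.2 and 11.4 CPM.

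In 7 of these 8 plotted genes the Controls stood apart from the other 6 libraries. The interaction that chose these genes contains the Control level, so the counts that follow are a description. Of the 44 genes above the sum at an adjusted p under 0.1, both Controls lay above the other 6 libraries in 44, and both MEF2A libraries lay below the other 6 in 21 (7.88% of all genes). Of the 16 below, both Controls lay below the other 6 in 15. Over all genes tested, Controls lay above in 11.1% and below in 15.8%. Controls 1 and 2 also lay outside the range of the batch 2 Controls, above it in 40 of the 44 (14.2% of all genes) and below it in 15 of the 16 (18.2% of all genes). Without Controls 1 and 2, on the 12 remaining libraries, 5 of the 8 named genes above the sum had an interaction below 0. Of the 8 below, 1 had it above 0. The part of the mt- content and RNA quality of Controls 1 and 2 in these values was not tested.

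MEF2A alone changed 482 genes against Control (2.96% of genes, edgeR adjusted p under 0.05), with 196 higher (1.21%) and 286 lower (1.76%). With YAP5SA already present, adding MEF2A changed 6 (0.0369%). These 6 were Xist, which was higher, and the Y-linked Eif2s3y, Ddx3y, Uty and Kdm5d with Gm29650, which were lower, the difference expected of females against males. Outside Xist, Tsix and chromosome Y, the count was 0 of 16252, with 356 genes at an unadjusted p under 0.05 and 17 called by DESeq2, sex genes included. The 2 comparisons have no library in common, so the genes of one can be read in the other. Choosing genes by a call enlarges their change in the comparison that chose them, so a smaller median in the other is expected from the choice alone. The 196 genes higher with MEF2A alone had a median log2 change of 1.34 there and 0.12 on top of YAP5SA, and 128 of them (65.3%) had the same sign. The 286 lower genes had medians of -1.86 and -0.07, and 166 (58.0%) had the same sign. Over all genes tested the median was 0.02 on top of YAP5SA. These counts rested on single libraries. For MEF2A against Control, 4 and 5 genes were called without MEF2A 1 and 2, 1102 and 230 without Control 1 and 2, 1209 and 1208 without YAP5SA 1 and 2, and 96 and 98 without both-virus library 1 and 2. For both viruses against YAP5SA the count was 226 without YAP5SA 2 and within 1.5 times of 6 without any other library.

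YAP5SA gave another picture. It changed 1518 genes without MEF2A (9.33%), 949 higher (5.84%) and 569 lower (3.5%), and 304 on top of MEF2A (1.87%). The genes were again chosen by the call without MEF2A, which enlarges their medians there. The 949 higher genes had a median log2 change of 1.65 without and 0.76 with MEF2A, and 867 (91.4%) had the same sign. The 569 lower genes had medians of -1.39 and -0.53, and 437 (76.8%) had the same sign. Across all genes, which are not independent replicates, the effect of MEF2A alone and on top of YAP5SA had Pearson's r = 0.0732 and Spearman's rho = 0.108, while that of YAP5SA alone and on top of MEF2A had r = 0.408 and rho = 0.403. In both pairs the effect on the no-virus background rests on Controls 1 and 2, and genes share depth and libraries within a comparison. The count of 1518 was 2677 without YAP5SA 2 and 716 without YAP5SA 1, and 487 to 591 without any 1 MEF2A or both-virus library. That of 304 was 5 to 26 without any 1 MEF2A or both-virus library, 1123 and 1111 without YAP5SA 1 and 2, and 468 and 485 without Control 1 and 2. The median absolute log2 change was 0.53 for MEF2A alone and 0.25 on top of YAP5SA. For YAP5SA it was 0.62 alone and 0.46 on top of MEF2A. An absolute change also contains replicate spread. The median absolute log2 difference of replicates was 0.47 in Controls, 0.28 with MEF2A, 0.50 with YAP5SA and 0.22 with both viruses.

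**Figure D2:**
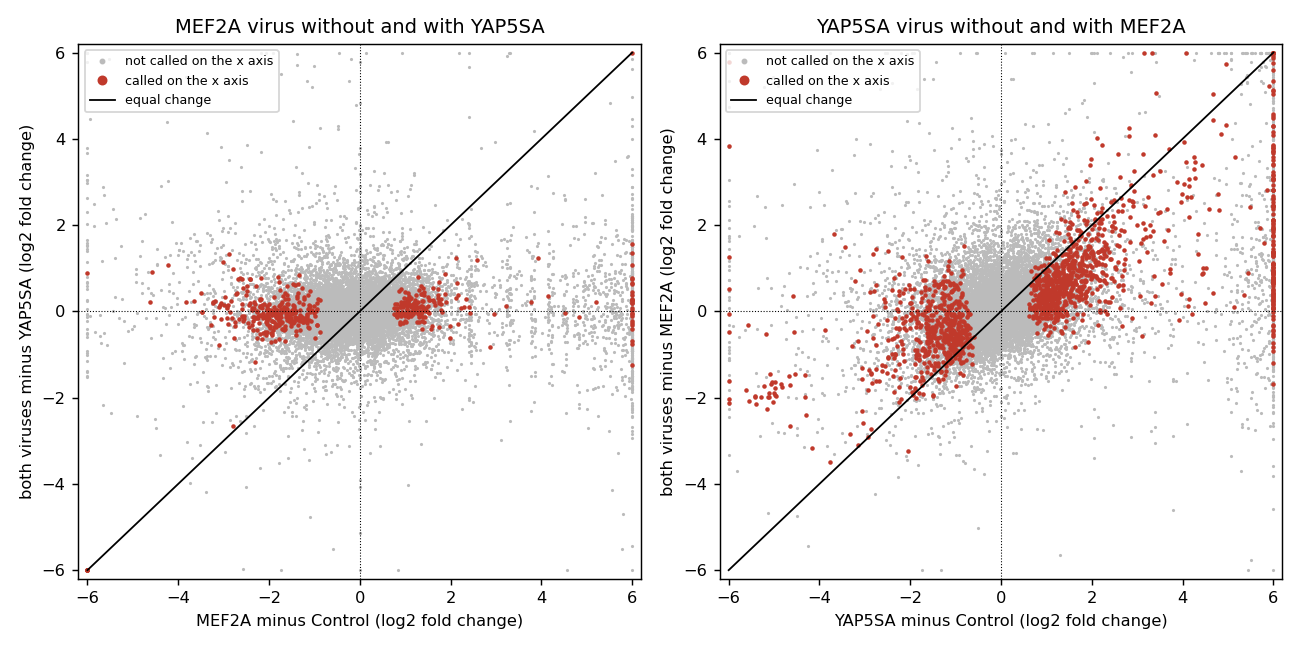
Log2 change of each of 16262 genes on 2 backgrounds, with the effect of MEF2A on 1 panel and of YAP5SA on the other, without the second virus on the x axis and with it on the y axis. Red points were called on the x axis, a choice that enlarges their x values. The line marks equal change, and values beyond 6 in either direction are drawn at the edge. For MEF2A the red points lie near 0 on the y axis (medians 0.12 and -0.07). For YAP5SA their medians lie on the same side of 0 but nearer to it than the line (0.76 and -0.53 on y against 1.65 and -1.39 on x).

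Some genes best known from skeletal muscle were highest with both viruses. They were picked after their values were seen, so they are described without resting on a test. Cacna1s, the voltage sensor of the skeletal muscle calcium channel, had 0 counts in both Controls, 2.13 and 1.37 CPM with MEF2A, 20.8 and 18.5 with YAP5SA and 56.9 and 59.1 with both viruses. Myh1, the fast 2X myosin heavy chain, had 0 counts in Controls, 0.363 CPM and 0 with MEF2A, 7.66 and 8.28 with YAP5SA and 35.4 and 37.2 with both. In both genes YAP5SA and both viruses did not overlap, and the both-virus libraries stood above all others. Myh2, the fast 2A chain, had 0 counts in Controls, 0 and 0.179 CPM with MEF2A, 40.3 and 42.7 with YAP5SA and 86.6 and 115 with both. Myh8, the perinatal chain, was at 4.55 and 4.84 CPM in Controls, 1.56 and 0.657 with MEF2A, 25.1 and 57.8 with YAP5SA and 97.8 and 76.9 with both. In Myh8 the MEF2A libraries were below the Controls, and both-virus libraries were again the highest. Mybph, a myosin-binding protein, had 0 counts in Controls, 0.0519 CPM and 0 with MEF2A, 4.18 and 2.80 with YAP5SA and 14.9 and 13.0 with both. Nav3, a microtubule-associated protein that is not on the list of skeletal muscle genes, was at 9.43 and 16 CPM in Controls, 7.52 and 11 with MEF2A, 48.0 and 53 with YAP5SA and 101 and 114 with both. All 6 genes had the same order, low in Controls and with MEF2A alone, higher with YAP5SA and highest with both viruses.

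On the linear scale the both-virus level exceeded the sum of the single effects by 36.6 ± 1.60 CPM (SE from the replicate spread, n = 2 per group) for Cacna1s. The excess was 28.2 ± 0.981 CPM for Myh1, 59.2 ± 14.2 for Myh2 and 49.5 ± 19.4 for Myh8. It was 10.4 ± 1.17 CPM for Mybph and 60.2 ± 7.96 for Nav3. For Cacna1s, Myh1, Myh2 and Mybph, low in Controls and with MEF2A, this excess is mostly the gap between both viruses and YAP5SA. Sex cannot be told apart from that gap, and a sex effect by a fixed factor does not cancel on the linear scale. The genes were picked after their values were seen, so these SEs are no test of an excess. The mean with both viruses was 2.95 times that with YAP5SA for Cacna1s, 4.56 times for Myh1, 2.43 times for Myh2, 2.11 times for Myh8, 3.99 times for Mybph and 2.12 times for Nav3. None of these passed against YAP5SA after adjustment: Cacna1s was at 1.56 ± 0.27 (edgeR adjusted p = 0.765) and the other 5 had an adjusted p of 1. Against MEF2A all 6 rose, with edgeR adjusted p-values from 0.000605 to 0.00524. A log2 interaction can be read only where Controls had counts: Myh8 had 3.14 ± 0.65 (edgeR adjusted p = 0.140) and Nav3 had 1.54 ± 0.41 (edgeR adjusted p = 0.230). For Cacna1s, with 0 counts in both Controls, the fitted log2 interaction was -6.55 ± 1.27. Its sign is opposite to that of the linear excess, so the excess depends on the scale. On the 14-library scale, the batch 2 library with YAP5SA had 19.5 CPM of Cacna1s, 5.16 of Myh1, 17.5 of Myh2, 37.0 of Myh8, 6.57 of Mybph and 43.0 of Nav3. Myh1, Myh2 and Myh8 are near-identical neighbours on chromosome 11, so counting could split their reads, and Cacna1s and Nav3 overlap genes on the other strand.

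**Figure D3:**
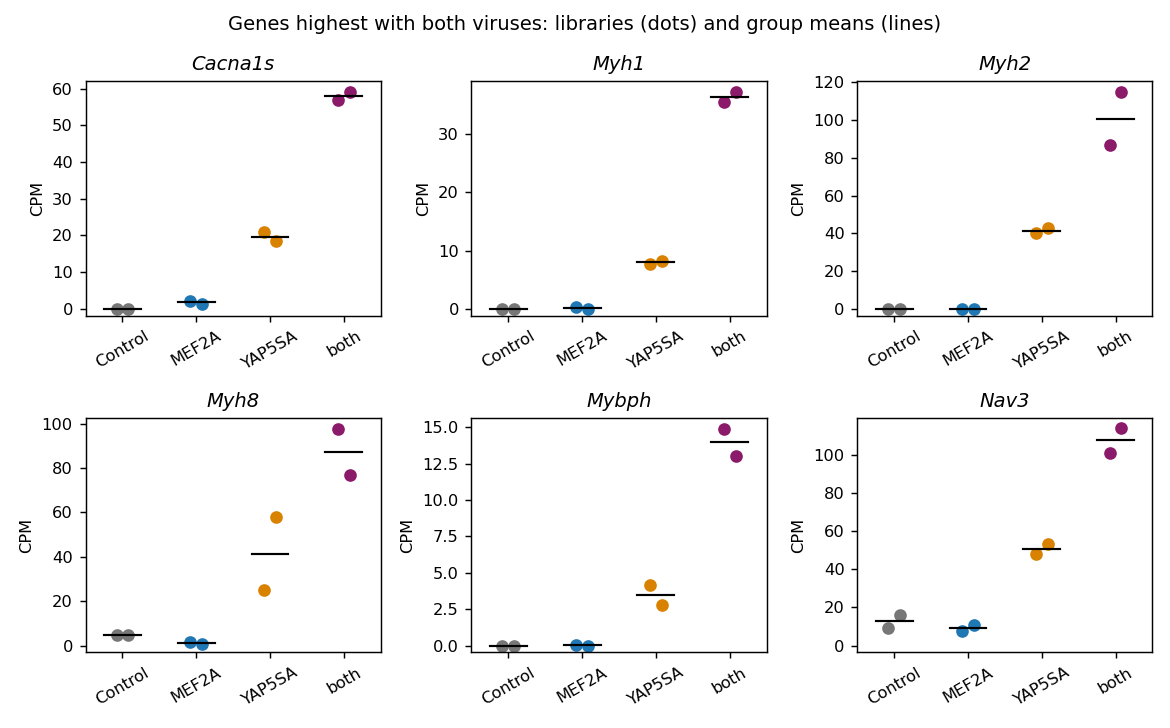
CPM of Cacna1s, Myh1, Myh2, Myh8, Mybph and Nav3 in the 8 batch 1 libraries on a linear axis, with 1 point per library by group. In each panel the 2 both-virus libraries are the highest, for example 56.9 and 59.1 CPM of Cacna1s against 20.8 and 18.5 with YAP5SA.

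The bases before the start of 4 of these genes are shown because TEAD factors, through which YAP acts, and MEF2 factors bind short sites in promoters. Each is the 250 bases upstream of the transcription start from RefSeq, GRCm38.p6, on the plus strand and written 5′ to 3′. They lie at chr1:136052561-136052810 (Cacna1s), chr11:67276874-67277123 (Myh8), chr11:67170777-67171026 (Myh2) and chr11:67199852-67200101 (Myh1). Capitals mark a match to the TEAD core GGAATG or to the MEF2 consensus, searched on both strands.
Cacna1s: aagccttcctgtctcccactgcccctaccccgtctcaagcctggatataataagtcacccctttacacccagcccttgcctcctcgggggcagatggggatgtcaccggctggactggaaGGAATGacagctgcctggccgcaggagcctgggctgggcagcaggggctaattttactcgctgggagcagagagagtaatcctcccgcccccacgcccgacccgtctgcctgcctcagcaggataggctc
Myh8: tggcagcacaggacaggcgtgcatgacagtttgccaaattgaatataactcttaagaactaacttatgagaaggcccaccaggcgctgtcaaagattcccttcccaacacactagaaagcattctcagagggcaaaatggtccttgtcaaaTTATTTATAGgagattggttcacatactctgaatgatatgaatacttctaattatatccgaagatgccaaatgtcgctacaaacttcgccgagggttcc
Myh2: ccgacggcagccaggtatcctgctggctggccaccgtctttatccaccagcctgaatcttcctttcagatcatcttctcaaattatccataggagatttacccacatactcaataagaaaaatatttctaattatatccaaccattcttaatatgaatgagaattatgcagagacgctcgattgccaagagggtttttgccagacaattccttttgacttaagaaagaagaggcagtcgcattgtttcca
Myh1: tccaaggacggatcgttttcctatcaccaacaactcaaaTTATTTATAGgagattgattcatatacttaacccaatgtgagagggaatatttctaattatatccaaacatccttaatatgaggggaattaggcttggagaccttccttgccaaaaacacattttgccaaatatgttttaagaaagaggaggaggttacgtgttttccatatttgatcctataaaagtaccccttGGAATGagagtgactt
Cacna1s holds 1 TEAD core, 130 to 125 bases before the start, and no MEF2 consensus. Myh8 holds 1 MEF2 consensus, 99 to 90 bases before the start. Myh1 holds both, the TEAD core at 16 to 11 and the MEF2 consensus at 211 to 202 bases. Neither word is in the window of Myh2. Mybph, not shown, holds a TEAD core 73 to 68 bases before its start. Of 11590 tested genes with such a window, 1271 (11%) hold the TEAD core, 206 (1.78%) the MEF2 consensus and 21 (0.181%) both. These matches describe the letters only.

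Cacna1s and Mybph are not on the list of skeletal muscle genes either. Of its 20 genes, 15 passed the filter on low counts. In 5 of the 15 the both-virus libraries lay above the other 6 (5.23% of all genes) and in 2 below them (2.87%). YAP5SA alone raised 7 of the 15 against Control (5.84% of all genes were called higher), and both viruses raised 3 against MEF2A (1.28%). MEF2A alone also raised 3 against Control (1.21%), which were Tnni2, Atp2a1 and Mybpc2 (named after their values were seen). Atp2a1 was at 0 CPM in both Controls and only 1.09 and 1.85 with MEF2A, and it overlaps Rabep2 on the other strand. The list did not move as one. Its median interaction was -0.78 and ranged from -2.64 without Control 1 to -0.27 with 1 library left out, and it was -0.03 without Controls 1 and 2. That median includes members with 0 counts in both Controls, whose fitted values are no bound. Casq1, the skeletal calsequestrin, was at 10.6 and 9.81 CPM in Controls, 14 and 7.22 with MEF2A, 73.7 and 26.0 with YAP5SA and 31.1 and 29.3 with both viruses. For Casq1 the both-virus libraries lay within the YAP5SA range (-0.78 ± 0.66). Mybpc2, fast myosin-binding protein C, was at 9.21 and 7.51 CPM in Controls and 21.8 to 23.5 in the other 6, and the virus groups overlapped (-1.45 ± 0.34). In batch 2, on the 14-library scale, Mybpc2 was at 20.8, 23.7 and 11.9 CPM in Controls and 12.9 and 22.6 with MEF2A. Those groups overlapped. Over all genes, 107 had an interaction at an unadjusted p under 0.05 together with both-virus libraries apart from the other 6. Both-virus libraries lay above the other 6 in 28 of the 951 genes above the sum (2.94%) and 52 of the 1095 below it (4.75%), against 5.23% of all genes. They lay below the other 6 in 3 (0.315%) and 24 (2.19%), against 2.87% of all genes. Srf, which drives muscle and cytoskeletal genes, was one of the 28, at 35.4 and 36.7 CPM in Controls, 35.4 and 27.8 with MEF2A, 36.7 and 26.0 with YAP5SA and 51.0 and 45.3 with both (0.81 ± 0.34, edgeR adjusted p = 0.380).

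Among the cell division genes, MEF2A was low without YAP5SA and not with it. Of 24 mitosis and cytokinesis genes, all tested, 10 fell with MEF2A against Control (1.76% of all genes were called lower). With MEF2A added to YAP5SA 0 were called by edgeR, 0 of them at an unadjusted p under 0.05 either, against 18 lower at that level for MEF2A against Control. In MEF2A against Control 3640 of 16252 genes were at that level in either direction, sex genes left out. In turn 6 rose when YAP5SA was added to MEF2A (1.28% of all genes were called higher). Both MEF2A libraries lay below the other 6 in 17 of 24 (7.88% of all genes). The list's median log2 change was -1.50 for MEF2A against Control and -0.17 for both viruses against YAP5SA. The median interaction was 1.29, with 23 of 24 above 0 (47.7% of all genes) and 15 at an unadjusted p under 0.05 (5.85% of all genes). None of them passed adjustment.

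Mki67, the proliferation marker Ki-67, was at 217 and 151 CPM in Controls, 67.3 and 31.4 with MEF2A, 127 and 130 with YAP5SA and 156 and 100 with both viruses. The MEF2A libraries were lowest, and the both-virus range overlapped those of YAP5SA and Control (interaction 1.90 ± 0.50, edgeR adjusted p = 0.232). Kif11, the kinesin that separates spindle poles, was at 13.1 and 7.13 CPM in Controls, 1.97 and 1.37 with MEF2A, 10.4 and 7.86 with YAP5SA and 8.72 and 8.29 with both. Its log2 change was -2.59 for MEF2A against Control (edgeR adjusted p = 0.0227) and -0.10 on top of YAP5SA (edgeR adjusted p = 1), with an interaction of 2.49 ± 0.59. Racgap1, needed for the cleavage furrow, was at 26.6 and 24.5 CPM in Controls, 10.1 and 8.24 with MEF2A, 31.8 and 26.9 with YAP5SA and 25.9 and 23.8 with both (1.24 ± 0.33). Ccnb1, cyclin B1, was at 14.1 and 9.81 CPM in Controls, 3.58 and 2.69 with MEF2A, 16.8 and 11.8 with YAP5SA and 12.9 and 11.6 with both (1.71 ± 0.49). Ect2, which activates RhoA in cytokinesis, was at 51.6 and 32.7, 23.0 and 8.84, 70.0 and 72.0, and 77.1 and 56.4 CPM in the same order (1.31 ± 0.57). In each of these genes the MEF2A libraries were the lowest 2 of the 8. Kif11, Racgap1 and Ccnb1 were chosen after their values were seen.

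The DNA replication list had a smaller shift of the same sign. Of 23 tested members of 24, 0 were called by edgeR for MEF2A against Control and 10 were lower at an unadjusted p under 0.05. At that level were 3640 of 16252 genes in either direction, sex genes left out. An interaction above 0 was seen in 22 members (47.7% of all genes). Both MEF2A libraries lay below the other 6 in 10 (7.88% of all genes). The list's median was -0.66 for MEF2A against Control, -0.02 on top of YAP5SA and 0.53 in the interaction. Mcm7, of the replicative helicase, was at 38.4 and 36.6 CPM in Controls, 49.5 and 34.9 with MEF2A, 34.6 and 72.9 with YAP5SA and 56.0 and 68.0 with both (0.04 ± 0.47). Those groups overlapped.

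Controls of batch 2 did not share 1 level of the mitosis genes. With CPM scaled over 14 libraries, the list's mean log2 CPM was 2.12 in Control 3, which was male, and 4.88 and 4.29 in Controls 4 and 5, which were female. It was 3.28 and 2.81 in MEF2A 3 and 4 and 4.34 in YAP5SA 3. Mki67 was at 46.4 CPM in Control 3 against 360 and 195 in Controls 4 and 5. Without Controls 1 and 2 the list's median interaction was 0.90, and with a term for sex as well it was -0.52, so the sign of the list turned with that term. With unscaled library totals it was 0.24, where the median of all genes was -1.08.

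**Figure D4:**
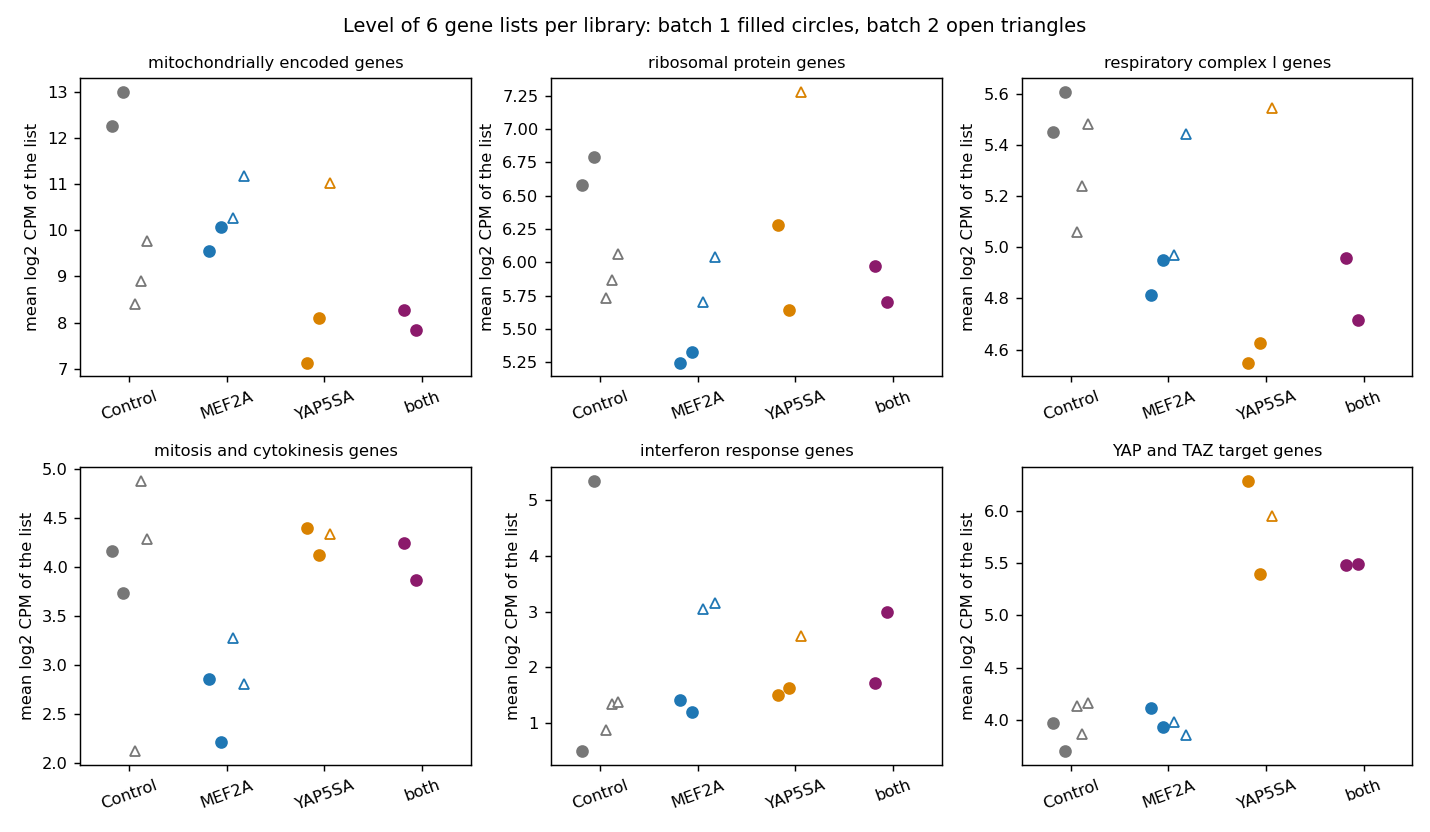
Mean log2 CPM of 6 gene lists in all 14 libraries, scaled together, with batch 1 as filled circles and batch 2 as open triangles by group. The mitosis list is low in the MEF2A libraries of batch 1 and at 2.12, 4.88 and 4.29 in the 3 batch 2 Controls.

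Target genes of YAP and its paralog TAZ were high with YAP5SA and remained high with both viruses. Of 23 tested of 24 listed, 12 rose with YAP5SA against Control (5.84% of all genes were called higher) and 8 rose with both viruses against MEF2A (1.28%). In MEF2A against Control 0 were called by edgeR, with 3 higher at an unadjusted p under 0.05 (3640 of 16252 genes in either direction, sex genes left out). The mean log2 CPM of the list was 3.94 and 3.67 in Controls, 4.05 and 3.88 with MEF2A, 6.21 and 5.32 with YAP5SA and 5.42 and 5.43 with both. YAP5SA 1 was the highest library and YAP5SA 2 sat beside the both-virus libraries. The median interaction was -0.46, with 18 of 23 members below 0 (47.7% of all genes lay above 0) and 3 at an unadjusted p under 0.05 (6.73% of all genes). Leaving out 1 library at a time moved that median between -0.86 and 0.09, so its sign rested on single libraries.

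Amotl2, an angiomotin that holds YAP in the cytoplasm and is itself a target, was at 35.8 and 41.1 CPM in Controls, 90.0 and 70.0 with MEF2A, 776 and 436 with YAP5SA and 510 and 549 with both viruses. The both-virus libraries lay between the YAP5SA libraries (-1.25 ± 0.38, edgeR adjusted p = 0.275). Ajuba, a LIM protein that inhibits LATS, was at 26.7 and 14.8 CPM in Controls, 44.4 and 29.0 with MEF2A, 131 and 115 with YAP5SA and 118 and 97.4 with both (-1.01 ± 0.43). Vgll3, a TEAD cofactor, was at 0.666 CPM and 0 in Controls, 1.40 and 1.07 with MEF2A, 50.6 and 13.7 with YAP5SA and 18.3 and 16.4 with both. These 3 were the members at an unadjusted p under 0.05, chosen after their values were seen. Ankrd1, a stress-responsive titin-binding protein, was at 1180 and 814 CPM in Controls, 1240 and 405 with MEF2A, 4580 and 1870 with YAP5SA and 1810 and 2360 with both (-0.36 ± 0.76). Asap1, which regulates focal adhesions, was at 97.9 and 100, 141 and 132, 294 and 261, and 301 and 361 CPM in the same order (-0.21 ± 0.24). For Asap1 the both-virus libraries were the highest by a small margin.

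Among the Hippo kinases, TEAD factors and cofactors, 19 of 20 were tested and the median interaction was -0.05. Tead3, a TEAD factor, was at 241 and 196 CPM in Controls, 427 and 379 with MEF2A, 632 and 530 with YAP5SA and 499 and 445 with both viruses. It rose with each single virus against Control (edgeR adjusted p = 0.0436 for MEF2A and 0.00536 for YAP5SA) and both-virus libraries lay between the single-virus groups (interaction -1.19 ± 0.26, edgeR adjusted p = 0.175). Tead1 was at 142 and 207 CPM in Controls, 169 and 190 with MEF2A, 363 and 230 with YAP5SA and 265 and 265 with both (-0.21 ± 0.36). Wwtr1, which codes for TAZ and was chosen after its values were seen, was at 18.7 and 23.9 CPM in Controls and 5.31 to 12.3 in the other 6 (1.64 ± 0.49). The mouse Yap1 gene was at 48.9 to 77.4 CPM over the 8 libraries with an interaction of -0.05 ± 0.31, and Mef2a at 371 to 594 CPM with 0.07 ± 0.27. Neither was called in any of the comparisons (edgeR adjusted p-values from 0.326 to 1), and the delivered coding sequences may not align to these mouse loci, so the levels do not check the labels.

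MEF2 factors and coregulators had a median interaction of -0.06 over 15 tested genes, and both MEF2A libraries lay above the other 6 in 6 of them (10.1% of all genes). Camk2d, a calcium-dependent kinase that releases MEF2 from histone deacetylases, was at 214 and 228 CPM in Controls, 319 and 452 with MEF2A, 281 and 275 with YAP5SA and 329 and 404 with both (-0.40 ± 0.29). Myocd, the SRF coactivator myocardin, chosen after its values were seen, was at 13.9 and 13.4 CPM in Controls, 29.1 and 27.5 with MEF2A, 44.4 and 24.3 with YAP5SA and 26.4 and 33.1 with both (-1.26 ± 0.43). All 3 virus groups of Myocd were above the Controls and overlapped. The 24 muscle genes linked to MEF2 factors had a median of 0.35 for MEF2A against Control, 0.16 on top of YAP5SA and -0.23 in the interaction. Myom1, which ties myosin at the M line, was at 3770 and 3630 CPM in Controls, 4550 and 6150 with MEF2A, 4420 and 3260 with YAP5SA and 3430 and 3820 with both (-0.61 ± 0.32).

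Several contractile genes were highest with MEF2A alone. Both MEF2A libraries lay above the other 6 in 8 of 18 sarcomere genes of the mature heart, and in 4 of 8 cardiomyocyte markers, against 10.1% of all genes. Myh6, Tnnt2, Ttn and other markers are on both lists, so the counts are not separate. The median interactions of these lists were -0.17 and -0.32, and 0.12 and 0.04, of the opposite sign, without Controls 1 and 2 (0.40 and 0.44 with a sex term as well). Myh6, the adult cardiac myosin heavy chain, was at 20900 and 18200 CPM in Controls, 39600 and 42200 with MEF2A, 14400 and 13800 with YAP5SA and 16200 and 17800 with both viruses. MEF2A raised Myh6 against Control (1.07 on the log2 scale, edgeR adjusted p = 0.031), while the change on top of YAP5SA was 0.27 and did not pass (interaction -0.80 ± 0.28, edgeR adjusted p = 0.319). Myh7, the beta chain, was at 589 and 420 CPM in Controls, 1260 and 1390 with MEF2A, 904 and 703 with YAP5SA and 872 and 859 with both (-1.29 ± 0.30). Tnnt2, cardiac troponin T, was at 9260 and 10900 CPM in Controls, 18000 and 17300 with MEF2A, 9770 and 13100 with YAP5SA and 8160 and 8610 with both (-1.25 ± 0.30, edgeR adjusted p = 0.194). For Tnnt2 the both-virus libraries were the lowest of the 8. Its promoter drives the delivered genes. Ttn, the spring of the sarcomere, chosen after its values were seen, went the other way, at 9940 and 11500 CPM in Controls, 8740 and 7880 with MEF2A, 3010 and 4150 with YAP5SA and 5060 and 6730 with both (1.09 ± 0.33). The batch 2 Controls had 26300 to 47200 CPM of Myh6 and the batch 2 MEF2A libraries 42600 and 37600 on the 14-library scale, so those groups overlapped there. Myh7 overlaps the antisense RNA Mhrt and their reads cannot be told apart.

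Fuel metabolism genes had small medians. The 26 fatty acid genes had a median of 0.62 for MEF2A against Control, 0.23 on top of YAP5SA and -0.45 in the interaction, and both MEF2A libraries lay above the other 6 in 10 (10.1% of all genes). Hadha, of the mitochondrial trifunctional protein, was at 397 and 405 CPM in Controls, 903 and 622 with MEF2A, 292 and 466 with YAP5SA and 469 and 451 with both (-0.65 ± 0.36). Acadm, the medium-chain dehydrogenase, was at 462 and 293, 754 and 597, 220 and 422, and 386 and 360 CPM in the same order (-0.62 ± 0.45). MEF2A libraries of both genes were the highest 2. Without Controls 1 and 2 the list's median interaction was 0.51, of the opposite sign. The 22 genes of the TCA cycle and pyruvate entry had both MEF2A libraries above the other 6 in 10 (10.1% of all genes) and a median interaction of -0.22, which was 0.05 without Controls 1 and 2 (0.15 with a sex term as well). Dlst, of the oxoglutarate dehydrogenase complex, was at 519 and 493 CPM in Controls, 770 and 831 with MEF2A, 433 and 512 with YAP5SA and 480 and 482 with both (-0.64 ± 0.24). The 24 glycolysis genes had a median of -0.36, and Eno3, muscle enolase, was at 1350 and 1060, 1440 and 1480, 269 and 698, and 599 and 600 CPM (0.03 ± 0.51).

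Mitochondrial and ribosomal genes had a positive interaction in every member, and these values moved with the Controls. All 15 mt- genes had an interaction above 0 at an unadjusted p under 0.05 (5.85% of all genes). Of them 13 fell with MEF2A against Control (1.76% of all genes) and 15 with YAP5SA against Control (3.5%). The list's median interaction was 3.17. Without Controls 1 and 2 the median was -2.49. All 36 ribosomal protein genes were above 0 (47.7% of all genes), 30 at an unadjusted p under 0.05 (5.85%), and 27 fell with MEF2A against Control (1.76%). With YAP5SA against Control 13 of them fell (3.5%). On top of YAP5SA 0 of these genes were called by edgeR, with 0 at an unadjusted p under 0.05. Their median was -1.50 for MEF2A against Control, -0.16 on top of YAP5SA and 1.40 in the interaction. Rps3, picked by its p, was at 114 and 140 CPM in Controls, 22.5 and 23.4 with MEF2A, 57.5 and 33.3 with YAP5SA and 42.2 and 33.0 with both viruses (2.20 ± 0.39). Rpl3 was at 219 and 225, 171 and 183, 260 and 229, and 254 and 213 CPM (0.26 ± 0.24). Both Controls lay above the other 6 in 29 of the 36 ribosomal genes (11.1% of all genes) and both MEF2A libraries below in 31 (7.88%). Without Controls 1 and 2 the ribosomal median was -0.44.

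Nuclear genes of the respiratory chain followed. Complex I had a median of 1.05 over 36 genes, with 33 above 0 (47.7% of all genes). Complexes II to V had a median of 0.98 over 38 genes, with 37 above 0. With unscaled library totals these medians were -0.00 and -0.06, where the median of all genes was -1.08. Both Controls lay above the other 6 in 21 of the 36 and in 29 of the 38, against 11.1% of all genes. Ndufa4, picked by its p, was at 73.1 and 85.8 CPM in Controls, 25.9 and 26.7 with MEF2A, 36.1 and 28.4 with YAP5SA and 46.3 and 37.2 with both viruses (1.97 ± 0.31, edgeR adjusted p = 0.0781). The most abundant members by CPM did not share this, with Ndufv1 at 552 and 416, 554 and 529, 175 and 307, and 280 and 284 CPM (0.07 ± 0.37) and Atp5b, the beta subunit of ATP synthase, at 878 and 829, 784 and 737, 461 and 547, and 567 and 558 CPM (0.32 ± 0.24). Without Controls 1 and 2 the medians were 0.11 and 0.04.

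**Figure D5:**
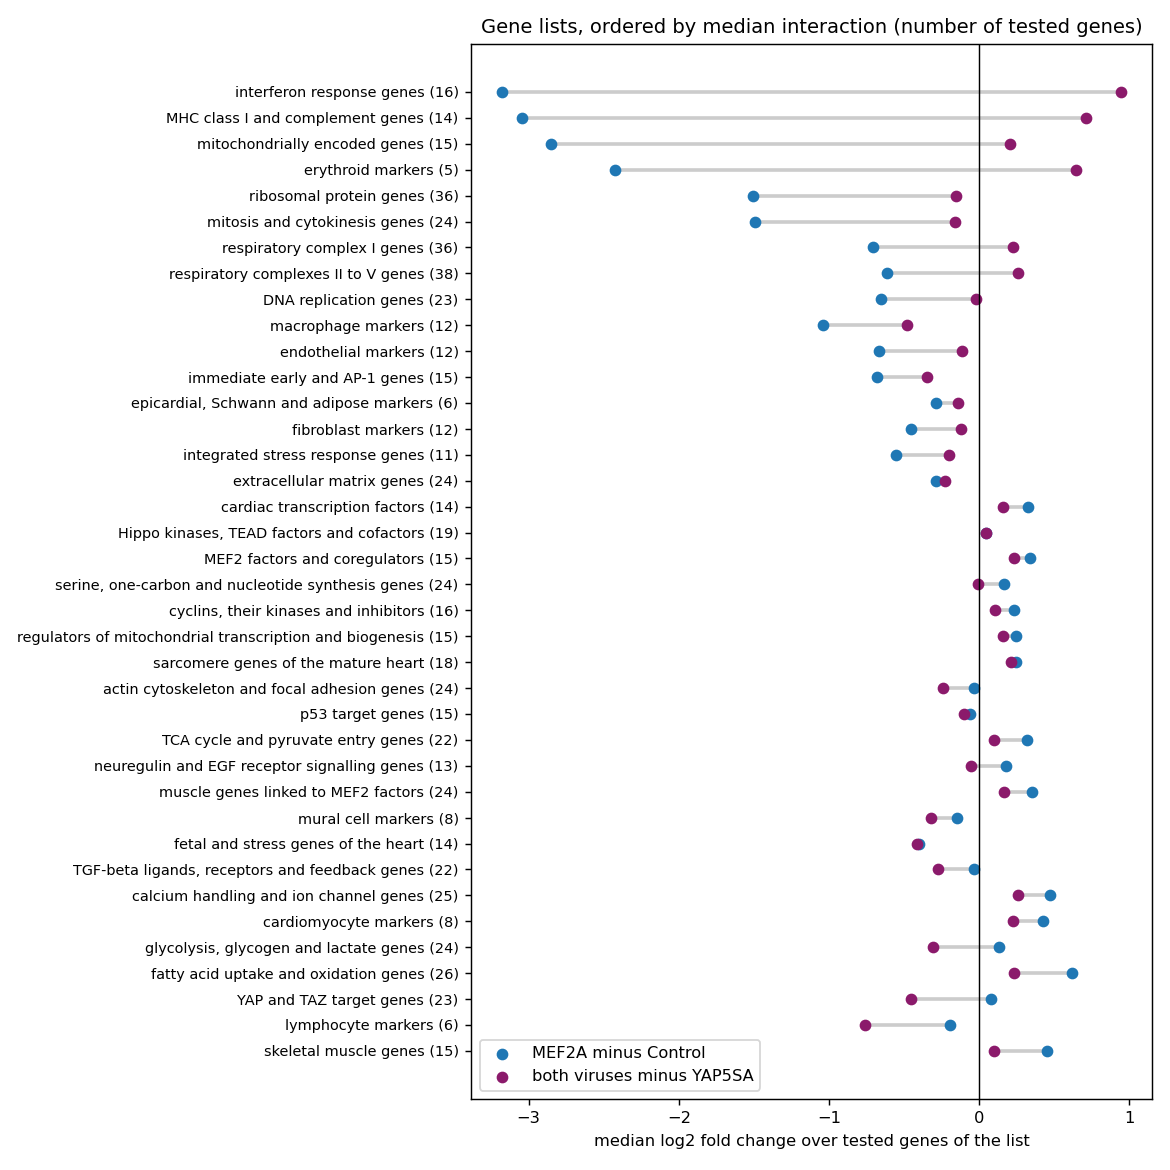
Median log2 change of each of 38 gene lists for MEF2A against Control (blue) and for both viruses against YAP5SA (purple), ordered by the median interaction. The distance between the 2 points is wide for the interferon, mt-, ribosomal and mitosis lists (mitosis -1.50 and -0.17), and 27 of the 38 lists have a median interaction within 0.5 of 0.

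Single libraries carried the immune lists. The 16 interferon response genes had the highest median interaction, 4.49, and it was 0.09 without Control 2. Stat2, a signal carrier of the interferon receptor, was at 104 CPM in Control 1 and 575 in Control 2, 130 and 122 with MEF2A, 93.7 and 145 with YAP5SA and 163 and 216 with both viruses. H2-D1, an MHC class I chain, was at 66.1 and 1090 CPM in the Controls and 231 in both-virus library 2, against 28.7 to 65.0 in the other 5. Control 2 stood alone in both genes, and the MHC and complement list had a median of 3.78 with and 1.45 without it.

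Markers of other cell types also differed between groups. Summed CPM of the 12 endothelial markers was 737 and 992 in Controls, 465 and 526 with MEF2A, 375 and 399 with YAP5SA and 376 and 345 with both viruses, and 7 of the 12 had both Controls above the other 6 (11.1% of all genes). The 12 fibroblast markers summed to 2180 and 2040, 1610 and 1890, 1930 and 1890, and 1680 and 1620 CPM. The 12 macrophage markers summed to 84.5 and 198 in Controls and 60.3 to 192 in the other 6, where YAP5SA 1 was highest. The 8 mural markers summed to 532 to 697 in 7 libraries and 1330 in YAP5SA 1. Median interactions were 0.44, 0.21, 0.46 and -0.26 in that order, and no marker of these 4 types was called in the interaction. Lymphocyte markers stayed at 5.04 to 16.5 summed CPM. The part of non-cardiomyocyte nuclei in the results above was not tested.

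Of the 38 lists, 9 had a median interaction above 0.5 and 2 below -0.5. The lists not yet given lay between -0.31, for calcium handling and ion channels, and 0.42, for immediate early genes. They were extracellular matrix, actin and focal adhesion, TGF-beta, neuregulin and EGF receptor signalling, p53 targets, cyclins, the integrated stress response, serine and one-carbon synthesis, fetal and stress genes, cardiac transcription factors, regulators of mitochondrial biogenesis, and epicardial, Schwann and adipose markers. The second list below -0.5 was that of lymphocyte markers, at -0.72 over 6 genes of low count. Removing mt- genes from the totals moved none of the 37 list medians that remained by more than 0.0294.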

How the data were processed

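RNA was measured in PCM1-enriched cardiomyocyte nuclei of mouse hearts. The values the authors deposited were raw counts per Ensembl gene, whole numbers that were not normalized. STAR, limma and edgeR with build GRCm38 are named in the submitters' processing notes. Versions, the counting program and its strand setting are not given in the sources used here, and libraries were non-directional, so overlapping genes cannot be separated.

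The table held 54446 genes, and 54409 had a symbol in GENCODE vM21, whose coordinates are used. Where several IDs shared a symbol, the one with the highest total count stands for it. The 8 batch 1 libraries were fitted in 1 model with a mean per group and 4 residual degrees of freedom (R 4.3.3, edgeR 4.0.16). Genes passed filterByExpr (minimum count 10, total 15), leaving 16262, and TMM factors scaled the totals. These factors were 0.558 and 0.459 in Controls and 1.03 to 1.43 elsewhere. The quasi-likelihood F-test was two-sided, with robust dispersion and Benjamini-Hochberg adjustment over all genes tested, called at 0.05. The test was checked on simulated counts. SE is the log2 value over the root of F. List means use log2 CPM with a prior count of 2.

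Genes named from the interaction were the 8 of smallest p in each direction (mean log2 CPM at least 1, no clone names, not mt- or Y-linked), since 1 was called, and from each list the members of highest mean CPM. Other genes are marked as chosen after their values were seen. Members and the 38 lists (673 genes) were chosen with earlier results of these data known. A list is described by counts and medians, with no test. Alternatives were other scalings, filters, DESeq2 1.42.0, limma 3.58.1, fits with batch 2, a sex term, a replicate block and each library left out. Replicate numbers did not pair the libraries: correlations of deviations of same-numbered libraries lay between -0.0581 and 0.0651.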

Additional observations from a re-analysis of the deposited data

Results flagged for a closer look

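The interaction of Hbb-bs was 4.14 on the log2 scale and passed the test of the difference between the effect of MEF2A without and with YAP5SA. MEF2A against Control was -3.0 and both viruses against YAP5SA was 1.14. The call was lost without Control 2, MEF2A 1, MEF2A 2 or both-virus library 1, with the stricter filter, and on all 14 libraries (2.33). On the 12 libraries without Controls 1 and 2 the value was 1.63 (edgeR adjusted p = 0.704), and 0.63 with a sex term as well. The erythroid marker sums in the report contain Hbb-bs itself, so their moving with it is no separate support. The part of blood RNA in the result was not tested.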

How the results depend on the processing

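The number of genes called in the interaction was 1 with mt- genes removed, with RLE factors, with upper-quartile factors and with the replicate block. It was 4044 with unscaled library totals (44 above, 4000 below), where the median of all genes moved to -1.08. It was 548 with no filter, 366 with DESeq2 (224 above, 142 below), 11 with limma-voom, 25 with quality weights, and 2 with mt- genes removed and no TMM factors, where the median of all genes was 0.15. It was 0 with the stricter filter, without mitochondrial, ribosomal protein and haemoglobin genes, and with all 14 libraries or the 12 without Controls 1 and 2, each with and without a sex term (chosen after seeing the data), with 1741, 1961, 441, 1208, 590 and 1673 genes at an unadjusted p under 0.05 by edgeR for the stricter filter, that gene removal, 14 and 12 libraries, and 14 and 12 with sex. Leaving out 1 library gave 0 to 163 genes: 163 without Control 1, 76 without YAP5SA 1, 133 without YAP5SA 2, 1 without both-virus library 2, and 0 without Control 2, MEF2A 1, MEF2A 2 or both-virus library 1, where 1038 to 2539 genes had an unadjusted p under 0.05 by edgeR.

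For the parts of the interaction, DESeq2 and no filter gave 17 and 121 for both viruses against YAP5SA, 1698 and 1663 for MEF2A against Control, 1245 and 1360 for both viruses against MEF2A, and 2972 and 2840 for YAP5SA against Control. Leaving out 1 library gave 4 to 226, 4 to 1209, 5 to 1123 and 487 to 2677 in that order. The counts were 226 without YAP5SA 2 for the first, 4 without MEF2A 1 for the second, 5 without MEF2A 2 for the third and 2677 without YAP5SA 2 for the last. With the replicate block MEF2A against Control had 299 genes, and both viruses against YAP5SA had 4, both viruses against MEF2A 233 and YAP5SA against Control 1096. The causes were not tested.

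Signs turned mainly when Control rested on batch 2. On 12 libraries without and with a sex term the interaction was -0.19 and -0.61 for Heatr5b, -0.026 and -0.63 for Sparc, -1.13 and -1.43 for Cenpb, -0.38 and -0.48 for Tpt1, and -0.46 and -1.30 for Tmsb4x. With sex alone it turned for Serpini1 (-1.78), Selenot (-0.37), Nrbp2 (0.15) and Dkc1 (0.29), and without sex for Unkl (0.086). Cacna1s, at 0 counts in Controls 1 and 2, had -6.55 on batch 1 alone, 0.85 on 14 and 1.55 on 12 libraries. Yap1 lay near 0 and was 0.20, 0.36, 0.012 and 0.19 on 14 libraries, 12, 14 with sex and 12 with sex, 0.15 without mt- genes and TMM, and -0.31 to 0.26 with 1 library left out, above 0 without Control 2, YAP5SA 2 or both-virus library 1. Mef2a was -0.98 with unscaled totals, and -0.14 to 0.31 with 1 library left out, below 0 without YAP5SA 1 or both-virus library 2. Hbb-bs kept its sign, with 1.63 on 12 libraries and 0.63 with sex as well. A sex term within batch 1 was not run because it equals the MEF2A term. With 1 library of a group left out, its partner is assumed to vary like the other groups. There were 2 libraries per group, with 6347527 and 5554085 counts outside mt- genes in the Controls, and interactions of log2 size 1 were rarely recovered in simulated counts.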
